A study of Arabidopsis thaliana with 12 samples.

Results

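The transcripts described here are those of 10 circadian clock genes in Arabidopsis thaliana roots: CCA1, LHY, RVE8, PRR9, PRR7, PRR5, TOC1, LUX, GI and FKF1. They were picked by name from a deposited RNA sequencing table of 25941 genes, with earlier results of these data known. Expression is given as RPKM, read counts scaled to gene length and to library size. A mean of at least 1 RPKM over the 12 libraries was required for testing, which 18910 genes and 8 of the 10 clock genes met. CCA1 and PRR9 stayed below it.

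Roots came from OX3, 1 transgenic line that overexpresses GmVP2, a soybean vacuolar proton pyrophosphatase, and from the wild type Columbia-0 (WT). Seedlings of both genotypes were grown for 10 days on solid MS medium, with either 6.25 µM phosphate (low) or 1250 µM phosphate (normal). The 4 groups were OX3 at low phosphate, OX3 at normal phosphate, WT at low phosphate and WT at normal phosphate, with 3 libraries each. The promoter driving the transgene, the light regime and the hour of harvest are not given in the sources used here. With 10 days the only time given for every group, a shift in the timing of a daily rhythm and a change in its mean level cannot be told apart. In whole roots, more cells expressing a gene and more RNA per cell likewise cannot be told apart. The labels do not tie the replicates to separate plantings, so p-values here measure the spread between these libraries, which may be technical.

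The plant clock is a set of genes that repress and activate one another over the day. CCA1 and LHY, related MYB transcription factors, accumulate around dawn and repress evening genes through a promoter sequence called the evening element. The pseudo-response regulators PRR9, PRR7 and PRR5 follow one after another through the day and repress CCA1 and LHY, and TOC1 (PRR1) does so in the evening. RVE8, a relative of CCA1, activates evening-element genes in the afternoon. LUX is the DNA-binding subunit of the evening complex. GI, a large plant-specific protein, and FKF1, a blue-light-sensing F-box protein, join in the light to promote the degradation of the CDF repressors of flowering. In roots the clock is known to run partly on signals from the shoot.

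The evening element was searched for as AAAATATCT, on both strands, in the 1000 bases before each annotated gene start of TAIR10.1. It occurred before 7.2% of 27438 genes and before 5 of the 10 clock genes: PRR5, TOC1, GI, FKF1 and LUX. The matches are printed with 20 bases on either side. As described further on, 4 of those 5 genes (PRR5, TOC1, GI and FKF1) were higher at low phosphate in both genotypes, and LUX did not pass. PRR7 was higher too, as were CCA1 and PRR9 when tested without the expression minimum, and they held no match in this window. Neither did RVE8, which fell, nor LHY, which did not pass. A part of the element in these changes was not tested. Each is written 5′ to 3′ along the gene's own strand, and capitals mark the element, which reads AGATATTTT where it lies on the opposite strand. The sequences are those of the RefSeq assembly TAIR10.1.
PRR5, 716 bases before the start, minus strand, chr5:8359234-8359282: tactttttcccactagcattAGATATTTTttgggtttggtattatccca
PRR5, 292 bases before, minus strand, chr5:8358810-8358858: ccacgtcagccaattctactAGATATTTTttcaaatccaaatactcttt
PRR5, 187 bases before, minus strand, chr5:8358705-8358753: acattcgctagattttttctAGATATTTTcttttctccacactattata
TOC1, 151 bases before, plus strand, chr5:24674792-24674840: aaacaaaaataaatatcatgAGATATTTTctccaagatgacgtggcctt
GI, 809 bases before, plus strand, chr1:8060922-8060970: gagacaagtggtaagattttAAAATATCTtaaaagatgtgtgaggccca
GI, 777 bases before, plus strand, chr1:8060954-8061002: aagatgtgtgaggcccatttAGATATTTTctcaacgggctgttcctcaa
GI, 591 bases before, plus strand, chr1:8061140-8061188: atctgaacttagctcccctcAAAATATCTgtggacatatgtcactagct
FKF1, 373 bases before, plus strand, chr1:25508246-25508294: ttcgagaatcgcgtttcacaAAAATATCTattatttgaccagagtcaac
FKF1, 186 bases before, plus strand, chr1:25508433-25508481: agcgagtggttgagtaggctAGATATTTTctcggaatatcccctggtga
LUX, 53 bases before, plus strand, chr3:17182969-17183017: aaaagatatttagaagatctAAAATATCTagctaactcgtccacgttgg

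GI and PRR5 each held 3 evening elements, FKF1 held 2, and TOC1 and LUX held 1. The first pair of GI elements began 809 and 777 bases before the start and pointed in opposite directions. In the shorter window from 250 bases before to 50 bases after the start, the element occurred at 2.8% of genes and at PRR9, PRR5, TOC1, FKF1 and LUX. The PRR9 match lay past the start, and the GI matches lay outside that window. FKF1 had 2 matches in it, and 1 of them began at the start base and is not among those printed.

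Other motifs were spread differently. The CCA1 binding site AAAAATCT occurred before LHY, PRR9 and PRR5, which is 3 of 10 clock genes against 21.1% of all genes in the 1000-base window. The G-box CACGTG, a site of bHLH and bZIP transcription factors, occurred before 6 of 10 clock genes (CCA1, LHY, RVE8, PRR9, PRR7 and LUX) against 14.8% of all genes. The letters GNATATNC, bound by the phosphate starvation regulator PHR1, occurred before FKF1 and RVE8, against 20.3% of all genes. No match of one motif overlapped a match of another within 1000 bases of these genes. A match describes the letters present and was not measured as binding.

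**Figure D1:**
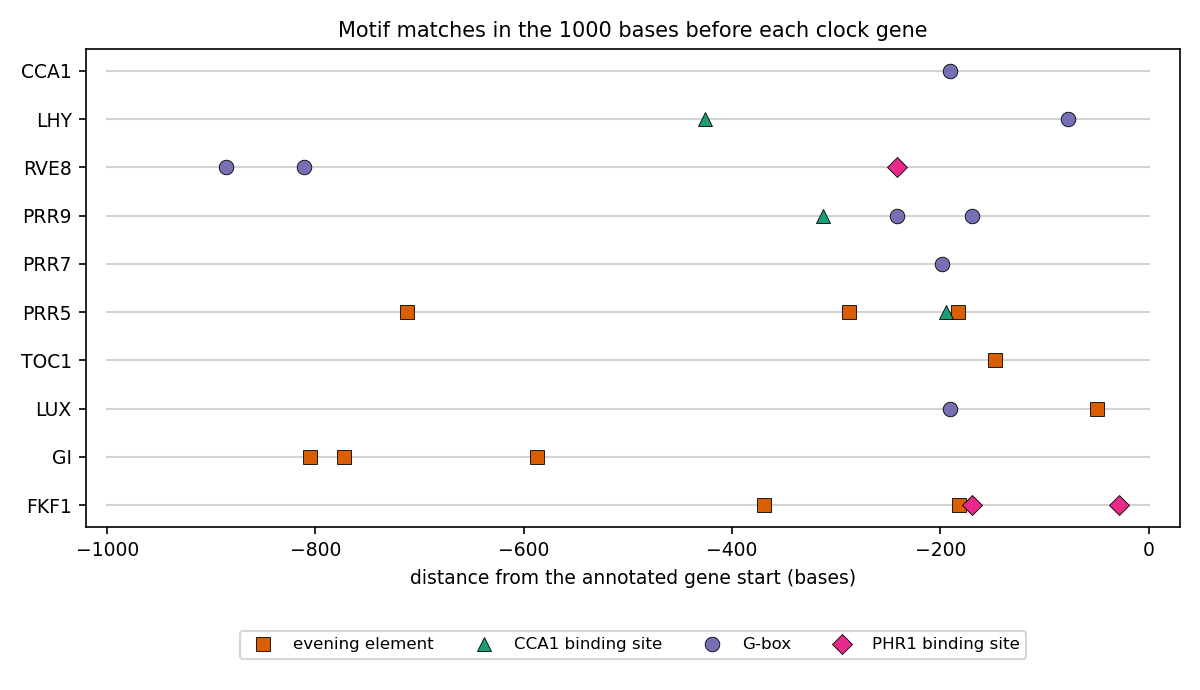
Matches of 4 motifs on either strand in the 1000 bases before the annotated start of each clock gene; the horizontal axis is the distance from the start in bases and each symbol is the midpoint of 1 match. Evening elements lie before PRR5, TOC1, LUX, GI and FKF1, while the upper rows from CCA1 to PRR7 hold G-boxes and no evening element.

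Libraries held 17670350 to 20418541 reads, recovered from the RPKM values as described under processing. Root identity markers were present, with all 12 listed genes tested and CASP1, an endodermal scaffold protein, the most abundant. Their summed level was 208 to 219 RPKM in OX3 at low phosphate, 145 to 156 RPKM in OX3 at normal phosphate, 201 to 233 RPKM in WT at low phosphate and 150 to 189 RPKM in WT at normal phosphate. Limma called 9 of the 12 higher at low phosphate in OX3 and 10 in WT, and 0 lower. Beside this, 23.3% of all tested genes were called higher in OX3 and 24.3% in WT. The median log2 difference of the root markers was 0.45 in OX3 and 0.43 in WT. All 5 phosphate starvation markers (IPS1, SPX1, PECP1, SPX3 and SQD2) rose in both genotypes. Photosynthesis genes typical of shoots were also present, and 18 of the 20 listed were tested. Their summed level was 304 to 340 RPKM in OX3 at low phosphate, 874 to 938 RPKM in OX3 at normal phosphate, 276 to 316 RPKM in WT at low phosphate and 601 to 690 RPKM in WT at normal phosphate. CAB1 (LHCB1.3), a chlorophyll-binding antenna protein, was the most abundant of them, while RBCS2B was listed at 0 in 6 libraries and CAB2 (LHCB1.1) in 3. Of the 9 listed shoot epidermis genes 3 were tested, and limma and voom called 0 in all 5 comparisons, with 1 by limma and 2 by voom at an unadjusted p below 0.05 between OX3 and WT at normal phosphate. In that comparison 4559 of all 18910 tested genes reached that unadjusted p by limma and 4592 of 18752 by voom. The part of these differences in root marker and photosynthesis transcripts in the clock gene values below was not tested.

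Within each group the clock genes spanned a wide range of levels, compared here per kilobase as RPKM. TOC1 was the most abundant in every group and PRR9 the least. TOC1 averaged 47.8 ± 2.99 RPKM in OX3 at low phosphate, 40.5 ± 0.579 RPKM in OX3 at normal phosphate, 52.0 ± 2.56 RPKM in WT at low phosphate and 43.2 ± 1.78 RPKM in WT at normal phosphate (SD, n = 3 each). PRR9 averaged 0.949 ± 0.144 RPKM in OX3 at low phosphate, 0.380 ± 0.0401 RPKM in OX3 at normal phosphate, 0.963 ± 0.295 RPKM in WT at low phosphate and 0.388 ± 0.0620 RPKM in WT at normal phosphate. At normal phosphate the order in both genotypes ran TOC1, LUX, PRR5, FKF1, GI and RVE8, and the ranges of FKF1 and GI in WT, and of GI and RVE8 in OX3, overlapped. At low phosphate FKF1 took the second place in both genotypes. Its range overlapped that of LUX in OX3 and that of PRR5 in WT. LHY, CCA1 and PRR9 formed the bottom of the order at low phosphate, with overlapping ranges between neighbours.

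**Figure D2:**
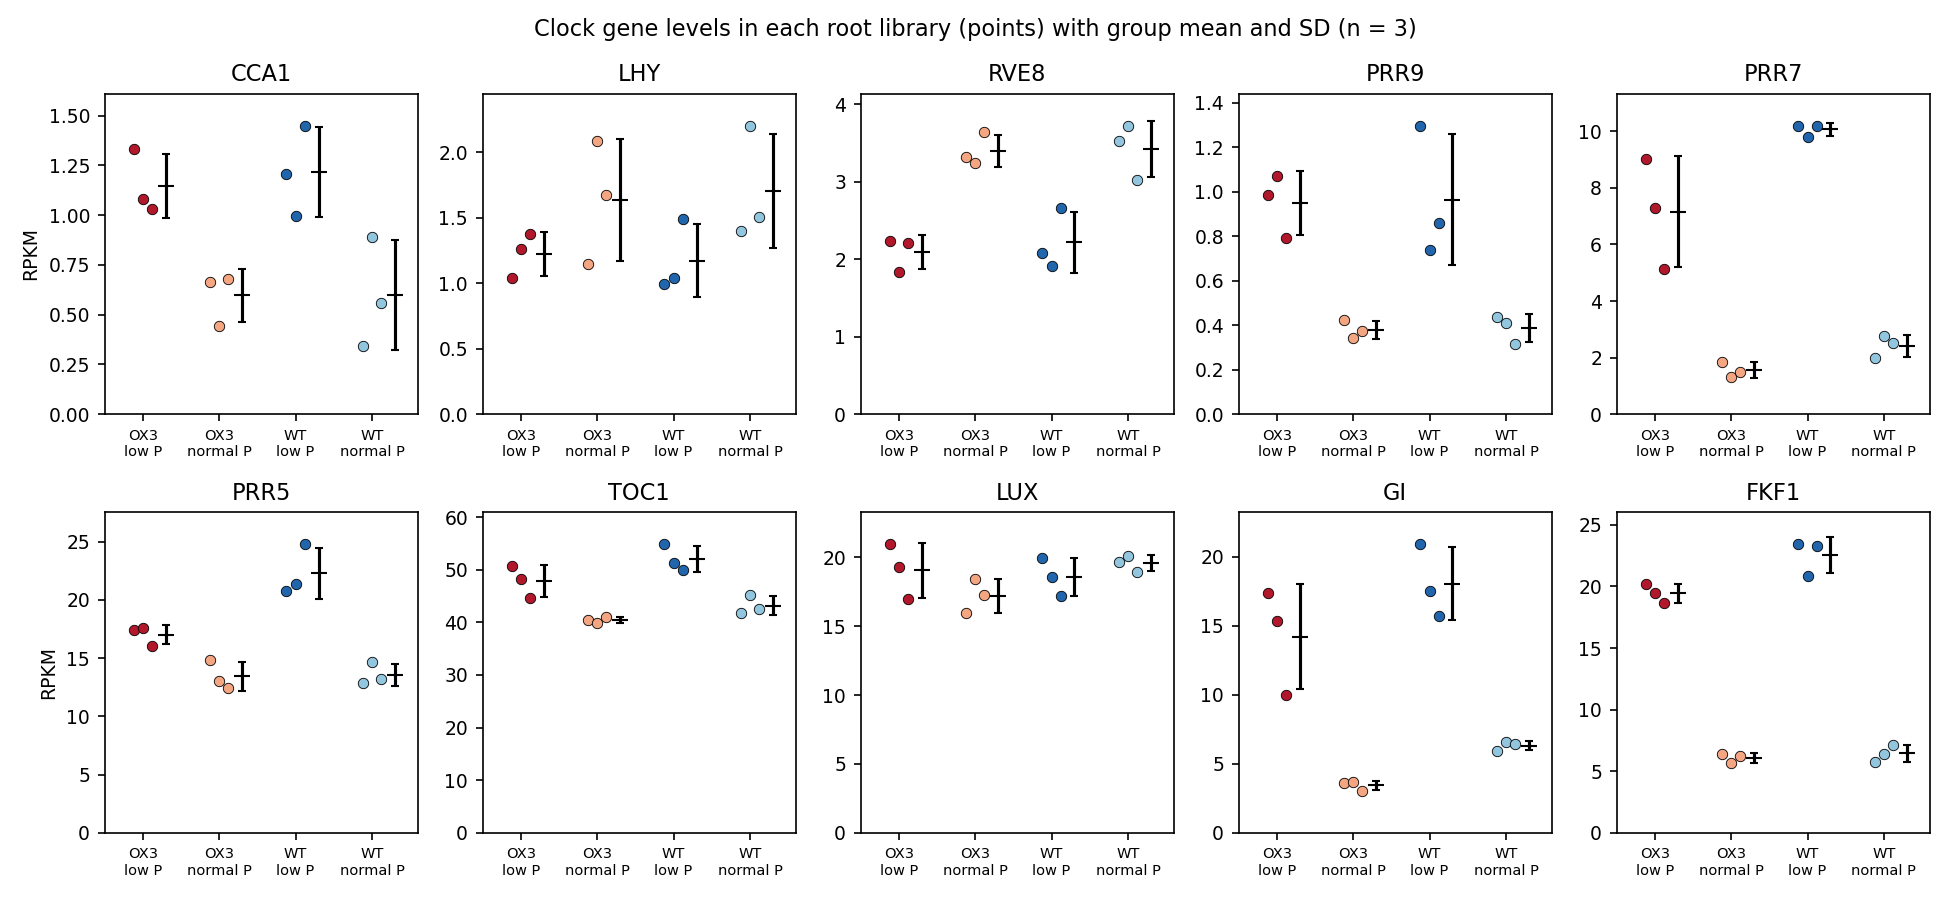
RPKM of each clock gene in every root library (points), with the group mean and SD (black bar, n = 3 libraries), for OX3 at low and normal phosphate and WT at low and normal phosphate; every vertical axis starts at 0. PRR7, GI and FKF1 stand well apart between the phosphate levels in both genotypes, whereas LHY and LUX overlap.

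Low phosphate was compared with normal phosphate within each genotype to see which clock transcripts respond to phosphate supply. PRR7, PRR5, TOC1, GI and FKF1 rose, RVE8 fell, and LHY and LUX did not pass the test, in OX3 and in WT alike. The largest changes were those of PRR7, GI and FKF1. In OX3, 5 of 8 clock genes were called higher, against 23.3% of all tested genes, and 1 of 8 lower, against 23.8%. In WT the same 5 were called higher, against 24.3% of all tested genes, and the same 1 lower, against 21.6%. The median log2 difference of the 8 genes was 0.28 in OX3 and 0.47 in WT, beside -0.02 and 0.02 over all tested genes. Calls are limma adjusted p-values below 0.05, and log2 differences are of RPKM + 1, which understates changes of low genes. How many of all genes had phosphate groups without overlap was not counted.

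The morning genes did not move as a group. CCA1 (AT2G46830, chr2:19245591-19248915, plus strand) was at 1.33, 1.08 and 1.03 RPKM in OX3 at low phosphate, against 0.665, 0.443 and 0.682 RPKM at normal phosphate. In WT it was at 1.21, 0.995 and 1.45 RPKM at low phosphate, against 0.342, 0.892 and 0.561 RPKM at normal phosphate. All low phosphate libraries lay above all normal phosphate libraries of the same genotype, on 19 to 71 recovered reads per library. Below the expression minimum, CCA1 was tested only without that filter. There the log2 difference was 0.43 ± 0.13 (SE) in OX3, limma adjusted p = 0.0191, and 0.48 ± 0.13 in WT, limma adjusted p = 0.0104.

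LHY (AT1G01060, chr1:33365-37871, minus strand), the closest relative of CCA1, was at 1.04, 1.26 and 1.37 RPKM in OX3 at low phosphate, against 1.15, 2.09 and 1.67 RPKM at normal phosphate. In WT the values were 0.991, 1.04 and 1.50 RPKM at low phosphate, against 1.40, 2.21 and 1.51 RPKM at normal phosphate. The phosphate groups overlapped in both genotypes. The log2 difference was -0.23 with a 95% interval of -0.56 to 0.10 in OX3 (limma adjusted p = 0.243) and -0.31 with an interval of -0.64 to 0.02 in WT (limma adjusted p = 0.121). By limma voom on recovered reads the WT difference was -0.54 with an interval of -1.03 to -0.06 (adjusted p = 0.0633). CCA1 and LHY, usually regarded as partners, thus had group means on opposite sides at low phosphate, CCA1 above and LHY below normal phosphate, and LHY did not pass the test.

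RVE8 (AT3G09600, chr3:2946239-2949017, plus strand), the afternoon activator, was the 1 clock gene that fell. It was at 2.24, 1.84 and 2.21 RPKM in OX3 at low phosphate, against 3.31, 3.24 and 3.64 RPKM at normal phosphate. WT roots had 2.08, 1.91 and 2.66 RPKM at low phosphate, against 3.53, 3.72 and 3.02 RPKM at normal phosphate. The groups did not overlap in either genotype, and the log2 difference was -0.51 ± 0.11 in OX3 (limma adjusted p = 0.00154) and -0.46 ± 0.11 in WT (limma adjusted p = 0.00305).

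Of the day-phase repressors, PRR9 (AT2G46790, chr2:19232607-19235179, plus strand) was the scarcest. It was at 0.986, 1.07 and 0.790 RPKM in OX3 at low phosphate, against 0.423, 0.343 and 0.375 RPKM at normal phosphate. WT libraries were at 1.30, 0.736 and 0.857 RPKM at low phosphate, against 0.435, 0.410 and 0.317 RPKM at normal phosphate. Every low phosphate library lay above every normal phosphate library, by a ratio of means of 2.50 in OX3 and 2.49 in WT. Without the expression minimum the log2 difference was 0.50 ± 0.10 in OX3 (limma adjusted p = 0.00183) and 0.49 ± 0.10 in WT (limma adjusted p = 0.00192). These values rest on 12 to 54 recovered reads per library, and 41.1% of the 50-base stretches of the PRR9 exons occur elsewhere in the genome, so its reads may be shared with another locus.

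PRR7 (AT5G02810, chr5:637681-642030, minus strand) had the largest log2 difference of the PRR genes. It was at 9.04, 7.30 and 5.13 RPKM in OX3 at low phosphate, against 1.86, 1.31 and 1.50 RPKM at normal phosphate. In WT its level was 10.2, 9.80 and 10.2 RPKM at low phosphate, against 1.98, 2.75 and 2.52 RPKM at normal phosphate. The groups lay far apart, although the OX3 low phosphate libraries spread more (coefficient of variation 27.3%) than the WT ones (2.33%). Its log2 difference was 1.65 ± 0.15 in OX3 (limma adjusted p = 4.68e-07) and 1.70 ± 0.15 in WT (limma adjusted p = 3.42e-07), and the ratio of mean RPKM was 4.59 in OX3 and 4.16 in WT.

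PRR5 (AT5G24470, chr5:8356204-8358546, minus strand) was at 17.4, 17.6 and 16.1 RPKM in OX3 at low phosphate, against 14.8, 13.1 and 12.4 RPKM at normal phosphate. The WT values were 20.7, 21.4 and 24.8 RPKM at low phosphate, against 12.8, 14.6 and 13.2 RPKM at normal phosphate. The low phosphate libraries were the higher ones in both genotypes, with a wider gap in WT. This gave a log2 difference of 0.32 ± 0.08 in OX3 (limma adjusted p = 0.00505) and 0.68 ± 0.08 in WT (limma adjusted p = 9.1e-06).

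TOC1 (AT5G61380, chr5:24674963-24678550, plus strand), the evening PRR, was at 50.6, 48.2 and 44.7 RPKM in OX3 at low phosphate, against 40.4, 39.9 and 41.0 RPKM at normal phosphate. WT roots stood at 54.9, 51.4 and 49.9 RPKM at low phosphate, against 41.8, 45.2 and 42.6 RPKM at normal phosphate. The groups did not overlap, but the shift was small: ratios of mean RPKM were 1.18 in OX3 and 1.20 in WT. The fitted log2 difference was 0.23 ± 0.06 in OX3 (limma adjusted p = 0.00367) and 0.26 ± 0.06 in WT (limma adjusted p = 0.00163).

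LUX (AT3G46640, chr3:17183042-17186959, plus strand) was at 21.0, 19.3 and 17.0 RPKM in OX3 at low phosphate, against 16.0, 18.4 and 17.2 RPKM at normal phosphate. In WT libraries it was at 20.0, 18.6 and 17.2 RPKM at low phosphate, against 19.7, 20.1 and 18.9 RPKM at normal phosphate. The groups overlapped in both genotypes. The 95% interval of the log2 difference was -0.03 to 0.31 in OX3 and -0.24 to 0.10 in WT, which leaves room for small changes in either genotype. Another gene, AT3G46650, covers 17.8% of the LUX exon bases on the opposite strand, and no source used here says whether the counting used strand.

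Both light-linked genes rose strongly. GI (AT1G22770, chr1:8061751-8067790, plus strand) was at 17.3, 15.3 and 9.96 RPKM in OX3 at low phosphate, against 3.62, 3.64 and 3.03 RPKM at normal phosphate. Levels in WT were 20.9, 17.5 and 15.7 RPKM at low phosphate, against 5.93, 6.60 and 6.42 RPKM at normal phosphate. The lowest low phosphate library was above the highest normal phosphate library in each genotype. The change on the log2 scale was 1.75 ± 0.15 in OX3 (limma adjusted p = 3.14e-07) and 1.37 ± 0.15 in WT (limma adjusted p = 4e-06), with ratios of mean RPKM of 4.14 in OX3 and 2.85 in WT.

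FKF1 (AT1G68050, chr1:25508639-25510907, plus strand) was at 20.2, 19.5 and 18.7 RPKM in OX3 at low phosphate, against 6.41, 5.64 and 6.27 RPKM at normal phosphate. For WT the values were 23.4, 20.8 and 23.3 RPKM at low phosphate, against 5.76, 6.44 and 7.15 RPKM at normal phosphate. Libraries within a group lay close together, and FKF1 had the smallest adjusted p of the clock genes in both genotypes. Low minus normal phosphate, the log2 difference was 1.53 ± 0.08 in OX3 (limma adjusted p = 1.36e-09) and 1.66 ± 0.08 in WT (limma adjusted p = 5.7e-10).

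**Figure D3:**
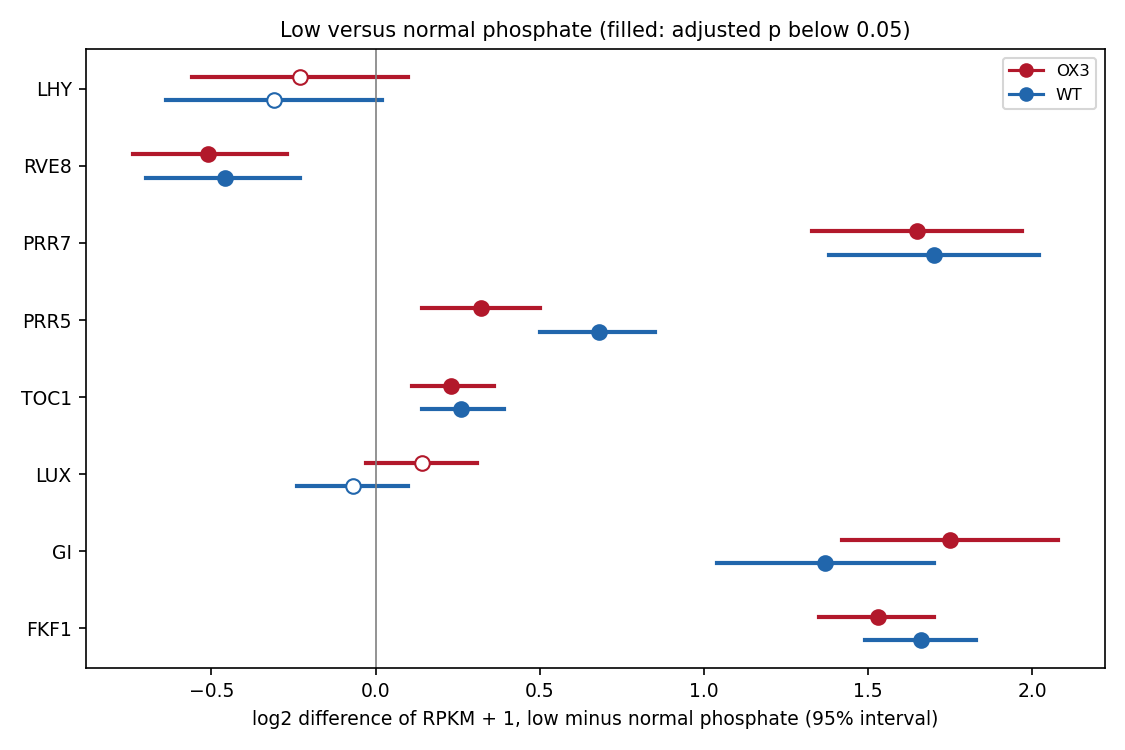
Log2 difference of RPKM + 1 between low and normal phosphate for the 8 tested clock genes, OX3 above WT in each row, with the 95% interval of limma; filled circles passed an adjusted p of 0.05. PRR7, GI and FKF1 lie between 1.37 and 1.75, PRR5 and TOC1 lower, RVE8 below 0, and the LHY and LUX intervals cross 0.

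OX3 was compared with WT at each phosphate level to see what the transgenic line changes in the clock. At normal phosphate GI was lower in OX3, and no other clock gene passed. That is 1 of 8 genes called, against 3.10% of all tested genes. This share, 587 genes, rested on single libraries: 8 and 37 genes were called without OX3 normal phosphate replicate 4 or 3, 39 and 66 without WT normal phosphate replicate 4 or 3, and 347 to 1059 without any other single library. GI was at 3.62, 3.64 and 3.03 RPKM in OX3 and at 5.93, 6.60 and 6.42 RPKM in WT, so every OX3 library lay below every WT library. The log2 difference was -0.73 ± 0.15 with a limma adjusted p of 0.0284, and the ratio of mean RPKM was 0.543. The call was lost without the expression minimum (limma adjusted p = 0.0655) and when any of 4 libraries was left out, OX3 replicate 3 or 4 or WT replicate 3 or 4 (limma adjusted p of 0.0971 to 0.120), while the log2 difference kept between -0.76 and -0.66. Photosynthesis markers differed in the same comparison, with 9 of 18 higher in OX3, and their part in the GI value was not tested.

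PRR7, TOC1 and LUX were below WT in all OX3 libraries at normal phosphate too, without passing. The share of all genes with no overlap was not counted. PRR7 was at 1.86, 1.31 and 1.50 RPKM in OX3, against 1.98, 2.75 and 2.52 RPKM in WT, a log2 difference of -0.42 with an interval of -0.74 to -0.09 (limma adjusted p = 0.117). LUX had a log2 difference of -0.18 (limma adjusted p = 0.190), and TOC1 had -0.09 (limma adjusted p = 0.342). For FKF1 the log2 difference was -0.07 with an interval of -0.24 to 0.10, and for PRR5 it was -0.01 with an interval of -0.19 to 0.16. CCA1 and PRR9 had nearly equal mean levels, 0.597 RPKM in OX3 and 0.598 RPKM in WT for CCA1, and 0.380 RPKM in OX3 and 0.388 RPKM in WT for PRR9.

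At low phosphate none of the 8 clock genes passed between OX3 and WT, beside 0.0423% of all tested genes called. At an unadjusted p below 0.05 there were 4 by limma and 4 by limma voom on recovered reads: PRR5, PRR7, GI and FKF1, all with lower means in OX3. Over all tested genes 2787 of 18910 reached that unadjusted p by limma and 2869 of 18752 by voom. PRR5 was at 17.4, 17.6 and 16.1 RPKM in OX3 and at 20.7, 21.4 and 24.8 RPKM in WT, and the groups did not overlap. Its log2 difference was -0.37 ± 0.08 with a limma adjusted p of 0.157, which became 0.0463 when WT replicate 2 was left out. PRR7 had a log2 difference of -0.47 ± 0.15 (limma adjusted p = 0.229), also without overlap. Without OX3 low phosphate replicate 4 the PRR7 difference was -0.28, and without replicate 1 it was -0.63. FKF1 had -0.20 ± 0.08 (limma adjusted p = 0.278), without overlap as well. GI had -0.35 ± 0.15 (limma adjusted p = 0.318), and its groups overlapped. How many of all genes had no overlap at low phosphate was not counted either, so the lack of overlap is a description only. Within OX3 at low phosphate, replicate 4 had the lowest value of CCA1, PRR9, PRR7, PRR5, TOC1, LUX, GI and FKF1. Without that library the GI log2 difference was -0.13 (limma adjusted p = 0.767).

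**Figure D4:**
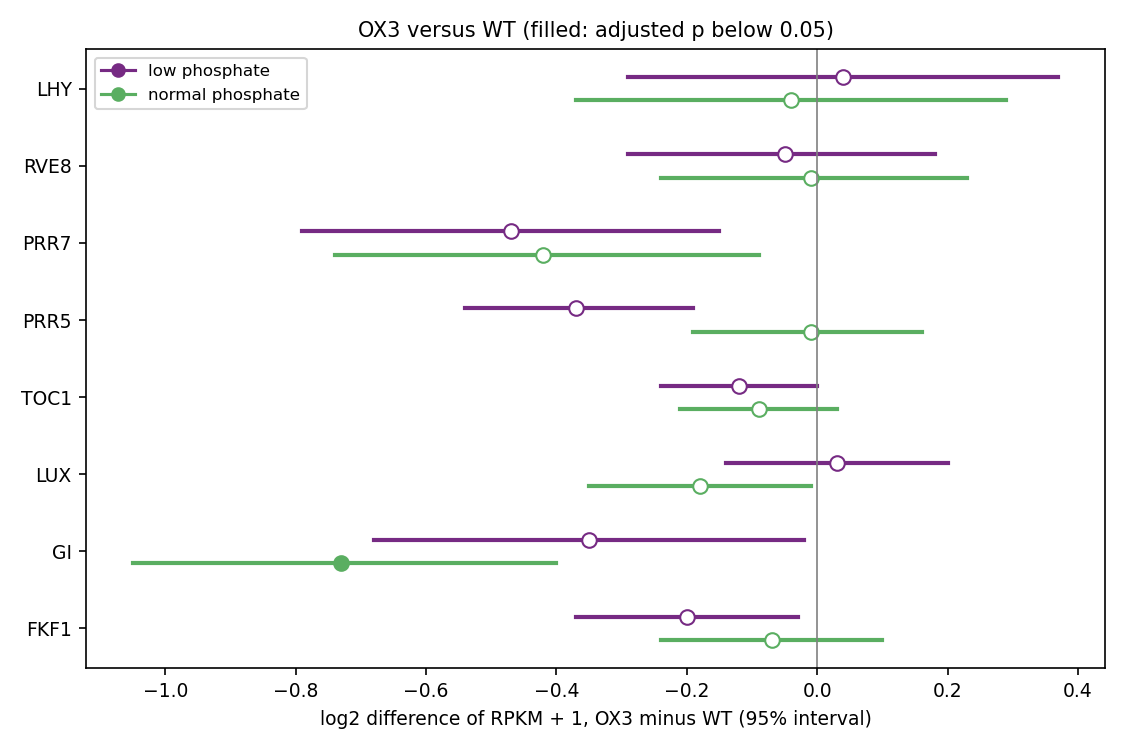
Log2 difference of RPKM + 1 between OX3 and WT for the 8 tested clock genes, at low phosphate (upper of each pair) and normal phosphate (lower), with the 95% interval of limma; the filled circle passed an adjusted p of 0.05. Only GI at normal phosphate passed, at -0.73, and PRR7 and GI lie below 0 at both phosphate levels with intervals that do not reach 0.

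The genotypes were then compared in their response to low phosphate, as the difference between the OX3 and WT log2 changes. None of the 8 clock genes passed, and the share called over all tested genes was 0%. The count at an unadjusted p below 0.05 was 1351 of 18910 genes by limma, and limma voom on recovered reads called 0 genes with 1271 at that unadjusted p. Among the 8 clock genes PRR5 alone reached it by limma and by voom with the same minimum, and by voom without the minimum GI reached it too (unadjusted p = 0.0445, adjusted p = 0.756). The PRR5 difference was -0.36 with an interval of -0.60 to -0.11 and a limma adjusted p of 0.637, so the wider PRR5 gap in WT was not shown to differ between genotypes. For GI the difference was 0.38 with an interval of -0.09 to 0.84, and for PRR7 it was -0.05 with an interval of -0.51 to 0.40.

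A list of 29 other clock genes was read beside these, and 26 were tested. In OX3 at low phosphate 11 rose, 3 fell and 12 did not pass, and in WT 8 rose, 3 fell and 15 did not pass. Over all tested genes 23.3% rose and 23.8% fell in OX3, and 24.3% rose and 21.6% fell in WT. The median log2 difference was 0.14 in OX3 and 0.03 in WT, beside -0.02 and 0.02 over all tested genes. Those with the smallest adjusted p were LNK1, COR27, COR28 and RVE2 in both genotypes. LNK1, a coactivator that works with RVE8, rose by a log2 difference of 1.12 ± 0.14 in OX3 (limma adjusted p = 1.65e-05) and 1.20 ± 0.14 in WT (limma adjusted p = 8.13e-06). It averaged 4.26 ± 1.03 RPKM at low and 1.39 ± 0.151 RPKM at normal phosphate in OX3, and 7.12 ± 1.16 RPKM at low and 2.52 ± 0.333 RPKM at normal phosphate in WT (SD, n = 3 each). LNK1 and RVE8 thus moved in opposite directions.

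COR27 and COR28, cold-regulated repressors of clock genes, rose as well. The COR27 log2 difference was 0.74 in OX3 and 0.94 in WT, and that of COR28 was 0.57 in OX3 and 0.71 in WT, with limma adjusted p-values from 3.42e-06 to 5.62e-05. RVE2, a MYB relative of CCA1, fell, with 51.9 ± 7.94 RPKM at low and 95.7 ± 2.98 RPKM at normal phosphate in OX3, and 42.1 ± 5.31 RPKM at low and 91.3 ± 9.79 RPKM at normal phosphate in WT (SD, n = 3 each). Its log2 difference was -0.88 in OX3 (limma adjusted p = 1.12e-05) and -1.10 in WT (limma adjusted p = 1.15e-06). The partners of LUX in the evening complex, named after their values were seen, gave a log2 difference of 0.14 in OX3 and 0.00 in WT for ELF3, which did not pass, and of 0.27 in OX3 (limma adjusted p = 0.0158) and 0.21 in WT (limma adjusted p = 0.0614) for ELF4.

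Between OX3 and WT at normal phosphate 1 of the 26 was called, a share near the 3.10% of all tested genes. By voom 2 of 25 were called, beside 1132 of all 18752 genes tested that way. TIC, a nuclear regulator of the clock and the gene called by limma, averaged 19.9 ± 2.02 RPKM in OX3 and 30.6 ± 4.00 RPKM in WT, a log2 difference of -0.59 ± 0.12 (limma adjusted p = 0.0269). That call was lost without the expression minimum (limma adjusted p = 0.0623) and without OX3 replicate 3 or 4 or WT replicate 3 or 4 (0.0943 to 0.132). At low phosphate limma called 0 of the 26, with 7 at an unadjusted p below 0.05, and in the difference of responses it called 0, with 3 at that p. With voom both counts were 0 as well, with 8 and 3 at an unadjusted p below 0.05. Of all 18910 genes tested by limma, 2787 reached that unadjusted p at low phosphate and 1351 in the difference of responses. By voom these were 2869 and 1271 of 18752.

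**Figure D5:**
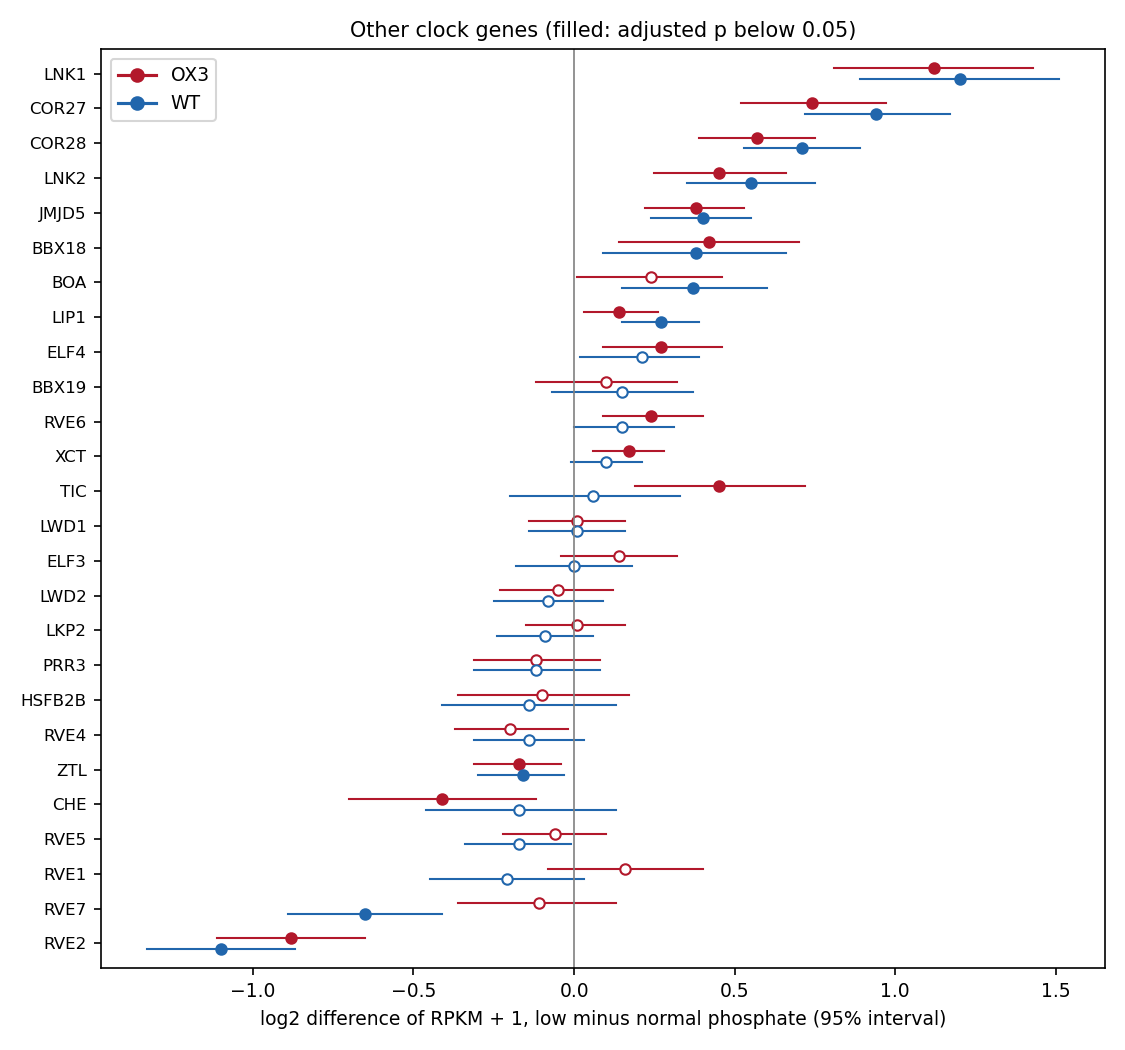
Log2 difference of RPKM + 1 between low and normal phosphate for 26 other clock genes, OX3 above WT in each row, with 95% intervals of limma; filled circles passed an adjusted p of 0.05. LNK1 is at the upper end and RVE2 at the lower end in both genotypes.

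Of 18 genes known as clock outputs, 12 were tested. In each genotype 7 rose and 2 fell at low phosphate, with a median log2 difference of 0.36 in OX3 and 0.46 in WT, beside -0.02 and 0.02 over all tested genes. The shares of all tested genes that rose were 23.3% in OX3 and 24.3% in WT, and those that fell were 23.8% and 21.6%. CDF2 and CDF3 encode DOF repressors of flowering that FKF1 and GI target for degradation as proteins. The CDF2 transcript rose by a log2 difference of 1.25 ± 0.08 in OX3 (limma adjusted p = 1.02e-08) and 1.00 ± 0.08 in WT (limma adjusted p = 1.03e-07). That of CDF3 rose by 1.11 ± 0.10 in OX3 (limma adjusted p = 4.35e-07) and 1.19 ± 0.10 in WT (limma adjusted p = 2.03e-07). The related CDF1 and CDF4, named after their values were seen, were not among those that rose. CDF1 fell by a log2 difference of 0.53 in OX3 (limma adjusted p = 0.000951) and 0.54 in WT (limma adjusted p = 0.000835), and CDF4 had -0.12 in OX3 and -0.04 in WT (limma adjusted p of 0.230 and 0.696). GRP8, a clock-controlled RNA-binding protein, averaged 923 ± 19.4 RPKM at low and 501 ± 27.7 RPKM at normal phosphate in OX3, and 926 ± 39.3 RPKM at low and 572 ± 3.66 RPKM at normal phosphate in WT (SD, n = 3 each). CAT3, an evening-phased catalase, had a log2 difference of 0.46 in OX3 and 0.51 in WT.

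Photoreceptors set the clock by light. Of 9 tested, 1 rose and 1 fell in OX3, beside 23.3% and 23.8% of all tested genes, and 2 rose and 2 fell in WT, beside 24.3% and 21.6%. PHYE, a phytochrome, had a log2 difference of 0.22 in OX3 (limma adjusted p = 0.0213) and 0.36 in WT (limma adjusted p = 0.000739). UVR8, the ultraviolet-B receptor, had -0.20 in OX3 (limma adjusted p = 0.00899) and -0.21 in WT (limma adjusted p = 0.00689). CRY2 had 0.17 and PHYB had -0.17 in WT (limma adjusted p of 0.0123 and 0.0332), and neither passed in OX3. Single libraries decided some of these calls: that of CRY2 was lost without WT normal phosphate replicate 2 (limma adjusted p = 0.0633), that of PHYB without any of 4 WT libraries (0.0524 to 0.121), and that of PHYE in OX3 without low phosphate replicate 2 or normal phosphate replicate 4 (0.0774 and 0.0727). PHYB was also lost when only the WT groups were fitted (0.0524).

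Between OX3 and WT at normal phosphate limma called 0 of 12 output genes and 0 of 9 photoreceptors, with 5 and 3 at an unadjusted p below 0.05, whereas voom called 2 output genes and 1 photoreceptor. Among all tested genes limma called 3.10% and had 4559 of 18910 at that unadjusted p, and voom called 1132 of 18752. At low phosphate both tools called 0 of either list, with 2 output genes and 4 photoreceptors at an unadjusted p below 0.05 by limma, and 1 and 5 by voom. That unadjusted p was reached by 2787 of all 18910 tested genes with limma and by 2869 of 18752 with voom.

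Levels of the clock genes were also set side by side across the 12 libraries, as Pearson correlations of log2(RPKM + 1) that share the libraries and the phosphate groups and are given as a description. PRR7 and GI had r = 0.98, PRR7 and FKF1 0.97, and GI and FKF1 0.94, while FKF1 and RVE8 had -0.91. After each group's mean was subtracted, TOC1 and GI had r = 0.84, GI and LUX 0.80, PRR7 and GI 0.78, and GI and FKF1 0.30. LUX, whose phosphate groups overlapped, ranked the libraries of each low phosphate group in the same order as GI and TOC1. At normal phosphate the order differed. In OX3 replicates 2, 3 and 4 at normal phosphate, LUX was at 16.0, 18.4 and 17.2 RPKM. There GI was at 3.62, 3.64 and 3.03 RPKM, and TOC1 at 40.4, 39.9 and 41.0 RPKM.

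The genes outside the set whose pattern was most like that of GI were AT5G25930 (r = 0.989), AAO3 (0.986), an abscisic aldehyde oxidase, and BLH4 (0.986), a homeodomain protein. In all, 194 tested genes had r above 0.95 with GI. Most like FKF1 were S6K2 (0.997), a kinase of a ribosomal protein, DGD1 (0.996), a galactolipid synthase, and G3Pp3 (0.995), and 1126 tested genes had r above 0.95 with it. Most like LHY were AT1G60130 (0.892), AT5G57815 (0.889) and ATL4 (0.846), and no gene was above 0.95. After group means were subtracted, the closest to GI were PEX6 (0.978), GSL03 (0.952) and LNK1 (0.951). For FKF1 they were then MYC3 (0.973), NET1D (0.964) and AT5G06330 (0.959), and for LHY AT4G30940 (0.952), AT5G57815 (0.944) and AT4G25260 (0.933).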

How the data were processed

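Root RNA of 12 libraries was sequenced, and the table that the authors deposited lists RPKM for 25941 genes. HTSeq 0.6.0 and the TAIR10 genome build appear in the submitters' processing notes without a stated role. The aligner, the strand setting and how RPKM was scaled are not given in the sources used here, and the unit was taken from the table. Of the gene identifiers 25688 were found in the RefSeq assembly TAIR10.1, 25671 of them at identical coordinates. Whole reads were recovered from RPKM with gene lengths and library totals for 99.45% of genes with a reference length, within 0.01 of a read, and 3 reads in a 1 kb gene correspond to 0.147 to 0.170 RPKM.

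The test was limma 3.58.1 with a mean-variance trend in R 4.3.3, on log2(RPKM + 1), for 18910 genes that averaged 1 RPKM or more. A single model covered the 4 groups, each of the 5 comparisons was a contrast within it, and p-values were adjusted by Benjamini-Hochberg over all tested genes, two-sided, with a threshold of 0.05. Errors printed with log2 differences are standard errors, and errors printed with RPKM are SD between libraries. The fits were also run on simulated data. Those data gave every gene the same dispersion, so they do not measure how the fits behave on these libraries. Replicate numbers shared between groups did not pair the libraries: the correlation of deviations of same-numbered libraries between phosphate levels ran from -0.05 to 0.08.

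The clock genes and all gene lists were chosen with earlier results of these data known. All 10 clock genes are named whatever their values. From the lists of other clock, output and photoreceptor genes, up to 4 called genes with the smallest adjusted p are named per comparison. For likeness, the 3 genes with the highest correlation with GI, FKF1 and LHY are named. COL1, on the output list, was not analysed here. Alternatives were no filter, scaling by median-ratio size factors, replicate numbers as a block, a pseudocount of 0.1, only the groups compared, limma voom on recovered reads and leaving out each library. Chosen after the data were seen was limma voom without the RPKM minimum, for genes with at least 10 reads.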

Additional observations from a re-analysis of the deposited data

How the results depend on the processing

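Of the 8 tested clock genes, 6 passed between phosphate levels in OX3 and in WT under every other setting run (8 of 10 where CCA1 and PRR9 were tested too), and leaving out 1 library gave 6 to 7 in OX3, where LUX passed at 0.21 (limma adjusted p = 0.038) without low phosphate replicate 4, and 6 in WT. Between OX3 and WT at normal phosphate the count was 0 by limma on log2(RPKM + 1) without the expression minimum, and 0 to 1 when 1 library was left out. By limma voom without the minimum GI still passed (adjusted p = 0.0176). At low phosphate it was 0 to 1 when 1 library was left out, PRR5 passing without WT replicate 2. CCA1 and PRR9, on few reads, had larger log2 differences by limma voom on recovered reads without the minimum: 0.95 and 1.29 in OX3, and 1.10 and 1.25 in WT. The number of genes called between OX3 and WT at normal phosphate over the whole table was 587, against 152 without the minimum, 225 with a replicate block, 1087 with only the groups compared, 1132 by voom and 1024 by voom without the minimum, and 8 to 1059 when 1 library was left out (8 without OX3 normal phosphate replicate 4, 1059 without WT normal phosphate replicate 2). At low phosphate it was 8, against 5 with median-ratio size factors, 2 with only the groups compared and 3 to 196 when 1 library was left out (196 without WT low phosphate replicate 2). The causes were not tested.

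With the replicate numbers as a block, 6 clock genes were called between phosphate levels in OX3 and 6 in WT, 1 between genotypes at normal phosphate and 0 at low phosphate. The block ended the calls of TIC between genotypes (limma adjusted p = 0.0539) and of PHYE in OX3 (limma adjusted p = 0.0737), and no other call of the clock genes or of the list genes it was run on. The OX3 log2 difference was 1.61 for GI and 1.48 for PRR7 under the replicate block. The libraries share only a number.

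Signs changed for differences that never passed, all near 0. Under single settings these were LUX at low phosphate between genotypes (-0.01 with the replicate block), the difference of responses of PRR7 (0.08 with a pseudocount of 0.1, 0.10 by voom and 0.10 by voom without the minimum) and that of TOC1 (0.01 with median-ratio size factors). Leaving out 1 library gave ranges that cross 0 for OX3 versus WT at normal phosphate in LHY (-0.16 to 0.10), PRR5 (-0.08 to 0.04), FKF1 (-0.13 to 0.00) and RVE8 (-0.07 to 0.04). At low phosphate these were LHY (-0.02 to 0.14), RVE8 (-0.12 to 0.04) and LUX (-0.03 to 0.11). For the difference of responses they were LHY (-0.06 to 0.20), PRR7 (-0.22 to 0.14), TOC1 (-0.07 to 0.02) and RVE8 (-0.11 to 0.05). The CCA1 and PRR9 values rest on 12 to 71 reads per library.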

Other observations

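Some clock genes below the expression minimum had higher means at low phosphate, given here as values without a test. LNK3, a relative of LNK1, averaged 0.840 RPKM at low and 0.366 RPKM at normal phosphate in OX3, and 0.742 RPKM at low and 0.299 RPKM at normal phosphate in WT. LNK4 averaged 0.473 RPKM at low and 0.167 RPKM at normal phosphate in OX3, and 0.474 RPKM at low and 0.0674 RPKM at normal phosphate in WT. Its normal phosphate means were within or below 0.147 to 0.170 RPKM, the level of 3 reads in a 1 kb gene, so they rest on few reads. PIF4, a bHLH factor downstream of the evening complex, stayed at or below 0.148 RPKM in every group mean, and CO, the flowering regulator that CDF proteins repress, at or below 0.138 RPKM. BAM3, a starch-degrading beta-amylase, went the other way, with 0.349 RPKM at low and 1.24 RPKM at normal phosphate in OX3, and 0.304 RPKM at low and 0.864 RPKM at normal phosphate in WT.

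RVE7, a further MYB relative of CCA1 named after its values were seen, had a log2 difference between low and normal phosphate of -0.11 in OX3 (limma adjusted p = 0.434) and of -0.65 in WT (limma adjusted p = 0.000259). The difference between genotypes in that response was 0.54 and did not pass (limma adjusted p = 0.623).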
